A study of Canis lupus familiaris with 32 samples.

Results

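VWF, PECAM1, SELE, SELP, ICAM1 and VCAM1 are genes of the blood vessel lining and of the steps by which leukocytes leave the blood, and they were taken by name from the 17107 genes of the authors' deposited gene table, which holds all 6. The table of array signals names no genes. Each gene was therefore tied to the probe set, a group of array probes read as 1 signal, whose folds and adjusted p-values equalled the gene's row in the authors' table. Exactly 1 probe set fitted for 5 of the 6 genes, among 10512 genes of the table that could be tied in this way. For these 5 the next nearest probe set lay 5.05 to 22.2 tolerances away. No probe set fitted VCAM1, which is described from the authors' deposited table alone.

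The skin came from 8 Maltese-beagle atopic dogs (5 males, 3 females, aged 5.5 to 10.5 years) that had been sensitized through the skin to the house dust mite Dermatophagoides farinae and picked for the study because they developed acute skin lesions after such a challenge. Each dog gave 4 biopsies of the lateral thorax. The control was skin under mineral oil, taken at 6 h, and the other 3 were skin under a mite patch, taken at 6 h, at 24 h and at 48 h. This makes 4 groups of 8 arrays, with 1 biopsy of every dog in each. Every dog was atopic and sensitized, and no healthy dogs are among these samples. The control was taken at 6 h only, so time since patching and the mite patch cannot be told apart at 24 h and 48 h. The sample titles name a control side and a challenged side. In each dog a difference between these sides cannot be told apart from the mite patch, at 6 h as well.

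A leukocyte in the blood first rolls along the vessel wall, held by selectins, then stops when its integrins bind proteins of the immunoglobulin family on the endothelium, and then passes between or through the lining cells. E-selectin (SELE) is made by activated endothelium. P-selectin (SELP) is kept together with von Willebrand factor (VWF) in Weibel-Palade bodies, the storage granules of endothelial cells, and both are also stored in platelets. ICAM1 binds leukocyte integrins of the beta-2 type, VCAM1 binds integrin alpha-4 beta-1, and PECAM1 sits at the junctions between endothelial cells and takes part in the passage through them. In skin, ICAM1 can also be made by keratinocytes, fibroblasts and leukocytes, and PECAM1 by platelets and some leukocytes.

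Array medians lay between 4.64 and 4.91 log2 units, the lowest being the 24 h array of dog 5. The 5 tied keratinocyte markers had mean levels of 7.44 to 9.28 over the 32 arrays, so the labelled tissue was visible in each of them. The arrays also differed in skeletal muscle and in a control for RNA integrity. The mean of 6 muscle markers reached 9.04 or more on 9 arrays (2 control, 5 at 6 h, 2 at 24 h and 0 at 48 h) and 6.81 or less on the other 23. The difference between the 3' and 5' probe sets for beta-actin, which is larger where RNA is less intact, averaged 2.27 ± 0.32 in control skin. In mite-patched skin it averaged 2.78 ± 0.48 at 6 h, 2.08 ± 0.37 at 24 h and 1.79 ± 0.29 at 48 h (log2, SD, n = 8 each). The part of both measures in the results below was not tested. Calls of the 5 tied genes, and of list genes against the control, that were lost when either was adjusted for or when the 9 arrays were left out are given with the results.

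**Figure D1:**
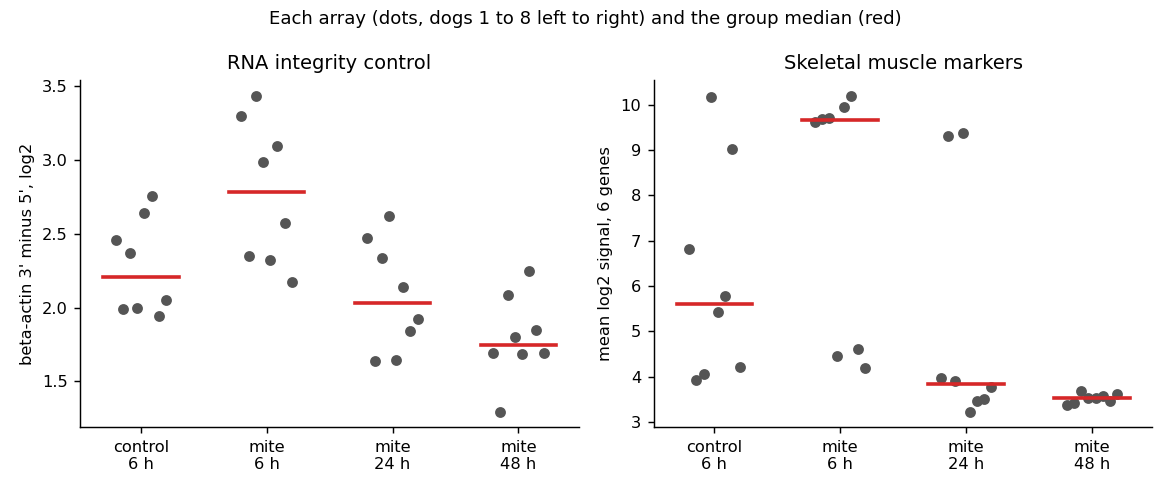
Beta-actin 3' minus 5' signal (left, log2) and the mean log2 signal of 6 skeletal muscle markers (right) for every array, in groups along the x axis, with the group median as a red line. At 6 h 5 of the 8 arrays carried muscle signal of 9.04 or more, and at 48 h none did.

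The adhesion genes moved in both directions. Against the control, SELE, SELP and ICAM1 were higher at 24 h and at 48 h, with fitted increases between 0.75 and 1.07 log2 units, PECAM1 was lower at both times, by 1.01 and 0.85 log2 units, and VWF was higher at 48 h, by 0.45. None of the 5 tied genes passed at 6 h. Because these are whole biopsies, a change in the number of cells that carry a transcript and a change in the transcript per cell cannot be told apart. Of the 5 genes, 3 rose and 1 fell at 24 h, where 2.97% of all 42860 probe sets rose and 5.22% fell, and 4 rose and 1 fell at 48 h, where 10.6% rose and 9.09% fell. The median change over all probe sets was -0.03 at 24 h and -0.02 at 48 h. The 3 comparisons with the control share the same 8 control arrays.

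**Figure D2:**
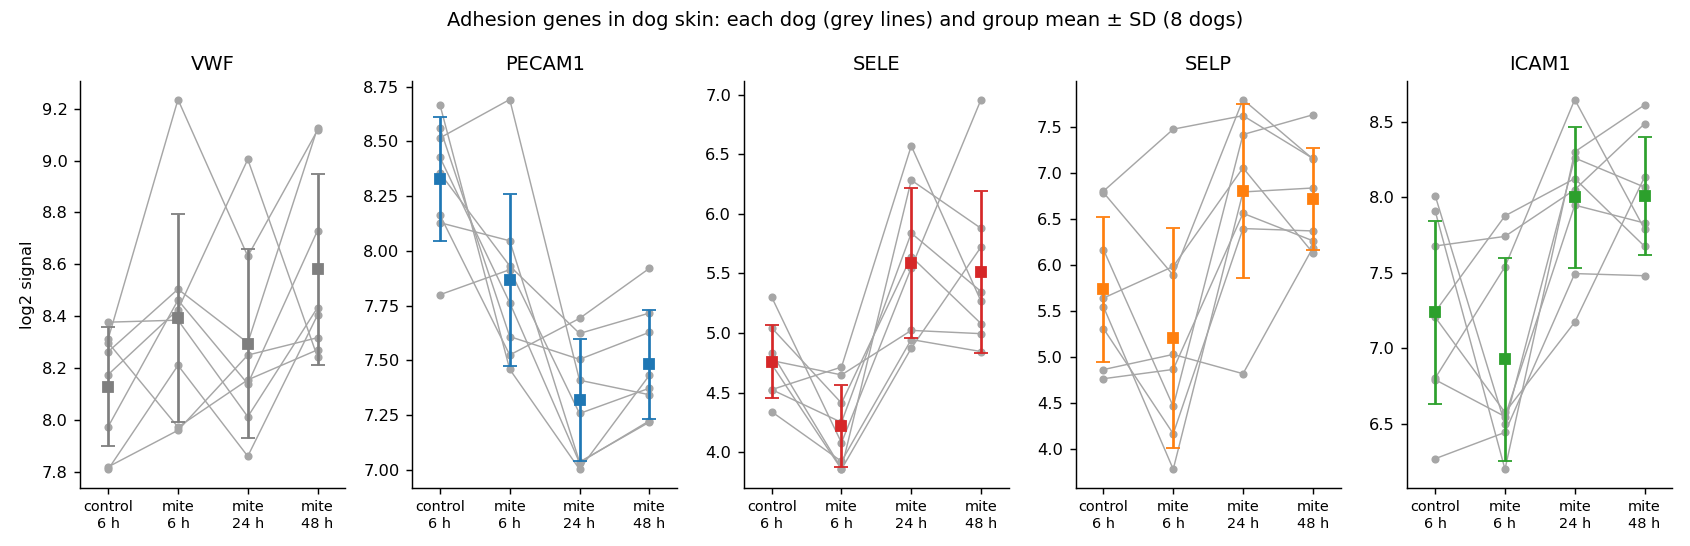
Log2 signal (y axis, a scale of its own for each gene) of the 5 tied genes in the 4 groups, with a grey line for each dog and the group mean ± SD over 8 dogs. SELE, SELP and ICAM1 sit higher at 24 h and 48 h than in control skin, while the PECAM1 arrays at 24 h all lie below the lowest control array.

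SELE, the selectin that endothelium makes when activated, had a signal near the array median in control skin. Its lowest, median and highest log2 signals were 4.34, 4.75 and 5.30 in control skin, 3.86, 4.17 and 4.71 at 6 h, 4.87, 5.59 and 6.57 at 24 h, and 4.84, 5.31 and 6.96 at 48 h. The groups at 24 h and 48 h overlapped the control, with 5 and 4 of their 8 arrays above the highest control array. Its mean percentile on the array was 47.8 in the control group, 38.5 at 6 h, 60.9 at 24 h and 59.2 at 48 h. Against the control it rose by 0.83 at 24 h (SE 0.22, adjusted p = 0.0194), a fold of 1.78, and by 0.75 at 48 h (SE 0.22, adjusted p = 0.0172), a fold of 1.68. The signal was higher than the same dog's control in 8 of 8 dogs at each of these times. At 6 h the change was -0.54 (adjusted p = 0.209), with 7 of 8 dogs lower.

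The rise of SELE at 24 h differed widely between dogs. It was 2.04 in dog 7, 1.45 in dog 3 and 1.31 in dog 5, and between 0.14 and 0.61 in the other dogs. Without dog 3, dog 5 or dog 7 the fitted rise at 24 h was 0.74, 0.76 or 0.66, and it no longer passed (adjusted p = 0.0725, 0.0707 and 0.0845). At 48 h the largest rise was that of dog 1, 1.66, and the smallest that of dog 6, 0.04. With the beta-actin difference as a covariate the change was 0.70 at 24 h (adjusted p = 0.0547) and 0.43 at 48 h (adjusted p = 0.337), and without the muscle-rich arrays it was 0.82 (adjusted p = 0.0722) and 0.67 (adjusted p = 0.0648). With the muscle mean as a covariate the 48 h rise was 0.61 (adjusted p = 0.0852).

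SELP, the stored selectin of endothelium and platelets, had a mean percentile on the array of 62.1 in the control group, 53.3 at 6 h, 75.1 at 24 h and 74.4 at 48 h. Its lowest, median and highest log2 signals were 4.77, 5.59 and 6.80 in control skin, 3.78, 4.95 and 7.47 at 6 h, 4.82, 6.92 and 7.80 at 24 h, and 6.13, 6.60 and 7.63 at 48 h. The 6 h arrays spanned the widest range, reaching both below and above all control arrays, and 4 of 8 arrays at each later time lay above the highest control. SELP rose by 1.07 at 24 h against the control (SE 0.29, adjusted p = 0.0215, higher in 7 of 8 dogs), a fold of 2.10, and by 0.98 at 48 h (SE 0.29, adjusted p = 0.0179, higher in 8 of 8 dogs), a fold of 1.97. The dog without a rise at 24 h was dog 8, with 4.82 on its mite array against 4.86 on its control array.

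At 6 h the change in SELP was -0.53 (95% interval -1.13 to 0.07, adjusted p = 0.387), with 4 of 8 dogs lower. The largest falls were those of dogs 1 and 3, -1.76 and -1.70. The 6 h arrays of these dogs had beta-actin differences of 3.30 and 3.43, the highest of the 32, and muscle means of 9.63 and 9.71. Dogs 6 and 4 had the next highest at 6 h, 3.09 and 2.99, and SELP changes of 0.67 and 0.10. The muscle mean of dog 6, 10.2, was the highest of the 32, and that of dog 4 was 4.45. Dogs 2 and 5, with changes of -0.90 and -1.14, had beta-actin differences of 2.35 and 2.32 and muscle means of 9.69 and 9.96. The part of either measure was not tested. Without the muscle-rich arrays the 6 h change turned to 0.12. The levels of SELP vary between dogs, and its calls rest on the pairing within dogs: without the dog in the fit the adjusted p was 0.155 at 24 h and 0.123 at 48 h. The 24 h rise lost its call without dog 4, dog 5 or dog 7 (0.97, 1.07 and 1.02, adjusted p = 0.0797, 0.0514 and 0.0535) and the 48 h rise without dog 4 (0.91, adjusted p = 0.0594). With the beta-actin difference as a covariate the rises were 0.97 (adjusted p = 0.0524) and 0.74 (adjusted p = 0.213), and with the muscle mean the 48 h rise was 0.80 (adjusted p = 0.0870).

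ICAM1, on which leukocytes held by beta-2 integrins come to a stop, had a mean percentile on the array of 79.8 in the control group, 76.9 at 6 h, 86.6 at 24 h and 86.4 at 48 h. Its lowest, median and highest log2 signals were 6.27, 7.22 and 8.01 in control skin, 6.20, 6.56 and 7.88 at 6 h, 7.17, 8.09 and 8.65 at 24 h, and 7.48, 7.95 and 8.61 at 48 h. The groups overlapped, with 5 of 8 arrays at 24 h and 4 of 8 at 48 h above the highest control. ICAM1 rose by 0.76 at 24 h (SE 0.22, adjusted p = 0.0318, higher in 7 of 8 dogs), a fold of 1.69, and by 0.77 at 48 h (SE 0.22, adjusted p = 0.0141, higher in 8 of 8 dogs), a fold of 1.71. At 6 h the change was -0.31 (95% interval -0.77 to 0.15, adjusted p = 0.533), with 4 of 8 dogs lower, and dogs 1 and 3 again had the largest falls, -1.71 and -1.51.

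The size of the ICAM1 rise at 24 h ran from -0.03 in dog 8 to 1.84 in dog 7. Dog 8 rose by 0.93 at 48 h, when the smallest rise was that of dog 3, 0.06. The 24 h call did not hold without the dog in the fit (adjusted p = 0.0838), without the muscle-rich arrays (0.49, adjusted p = 0.118), with the beta-actin difference (0.69, adjusted p = 0.0718), without the 24 h array of dog 5 (0.72, adjusted p = 0.0615), or without dog 4, dog 5 or dog 7 (0.69, 0.70 and 0.61, adjusted p = 0.0999, 0.0965 and 0.121). The 48 h call did not hold with the beta-actin difference (0.60, adjusted p = 0.180), with the muscle mean (0.63, adjusted p = 0.0717), or without dog 4 (0.71, adjusted p = 0.0523).

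VCAM1, the other arrest molecule, has no per-dog values here. The authors' deposited table gives it a signed fold of 1.2 at 6 h (adjusted p = 0.752), -1 at 24 h (adjusted p = 0.966) and -1 at 48 h (adjusted p = 0.943), where a minus sign marks a lower value in mite-patched skin. In the same table ICAM1 had signed folds of -1.2, 1.7 and 1.7 at 6 h, 24 h and 48 h, and its lowest adjusted p was 0.057, at 48 h. That table matches a model that leaves out the dog, and within it 1 of the 6 genes, PECAM1, passed, at 24 h and 48 h. SELE at 48 h was listed at the threshold (adjusted p = 0.05). The plain linear model without the dog gave it 0.0495, so leaving SELE out of this count rests on rounding. At 24 h and 48 h 4.38% and 8.22% of the 17107 genes of the table were lower and 2.85% and 12.5% higher.

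PECAM1, the junction molecule, went the other way. Its lowest, median and highest log2 signals were 7.80, 8.39 and 8.67 in control skin, 7.46, 7.84 and 8.69 at 6 h, 7.00, 7.33 and 7.69 at 24 h, and 7.22, 7.40 and 7.92 at 48 h. All 8 arrays at 24 h lay below the lowest control array, and 7 of 8 did so at 48 h. The share of all probe sets that separate from the control in this way was not counted. PECAM1 fell by 1.01 at 24 h against the control (SE 0.14, adjusted p = 0.000101), to a level 2.01-fold lower, and by 0.85 at 48 h (SE 0.14, adjusted p = 9.93e-05), to a level 1.80-fold lower. The signal was lower than the same dog's control in 8 of 8 dogs at both times. The fall ran from -0.47 in dog 4 to -1.67 in dog 3 at 24 h, and from -0.24 in dog 4 to -1.24 in dog 3 at 48 h.

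At 6 h PECAM1 had already a change of -0.46 (SE 0.14, adjusted p = 0.0768), with 6 of 8 dogs lower. This value passed when the arrays were weighted by their quality (-0.48, adjusted p = 0.0442) and without dog 6 (-0.55, adjusted p = 0.0426), whose 6 h array, 8.69, was the highest of its group. The falls at 24 h and 48 h passed under all 20 alternatives tried, with values from -1.11 to -0.91 and from -0.95 to -0.73.

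VWF, the multimeric clotting protein of endothelium and platelets, had a mean percentile on the array of 87.8 in the control group, 89.7 at 6 h, 88.7 at 24 h and 90.3 at 48 h. Its lowest, median and highest log2 signals were 7.81, 8.22 and 8.38 in control skin, 7.96, 8.41 and 9.24 at 6 h, 7.86, 8.20 and 9.005 at 24 h, and 8.24, 8.42 and 9.13 at 48 h. VWF rose by 0.45 at 48 h against the control (SE 0.13, adjusted p = 0.0126, higher in 7 of 8 dogs), a fold of 1.37, and 5 of 8 arrays lay above the highest control. The largest rises were 0.86 in dog 4, 0.80 in dog 6 and 0.76 in dog 8, and dog 7 had -0.03. The changes of 0.27 at 6 h (adjusted p = 0.299, higher in 7 of 8 dogs) and 0.16 at 24 h (adjusted p = 0.502, higher in 6 of 8 dogs) did not pass. The 48 h rise was not called without the dog in the fit (adjusted p = 0.0621), with the beta-actin difference (0.31, adjusted p = 0.227), or without dog 4 or dog 8 (0.39 and 0.41, adjusted p = 0.0513 and 0.0512).

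**Figure D3:**
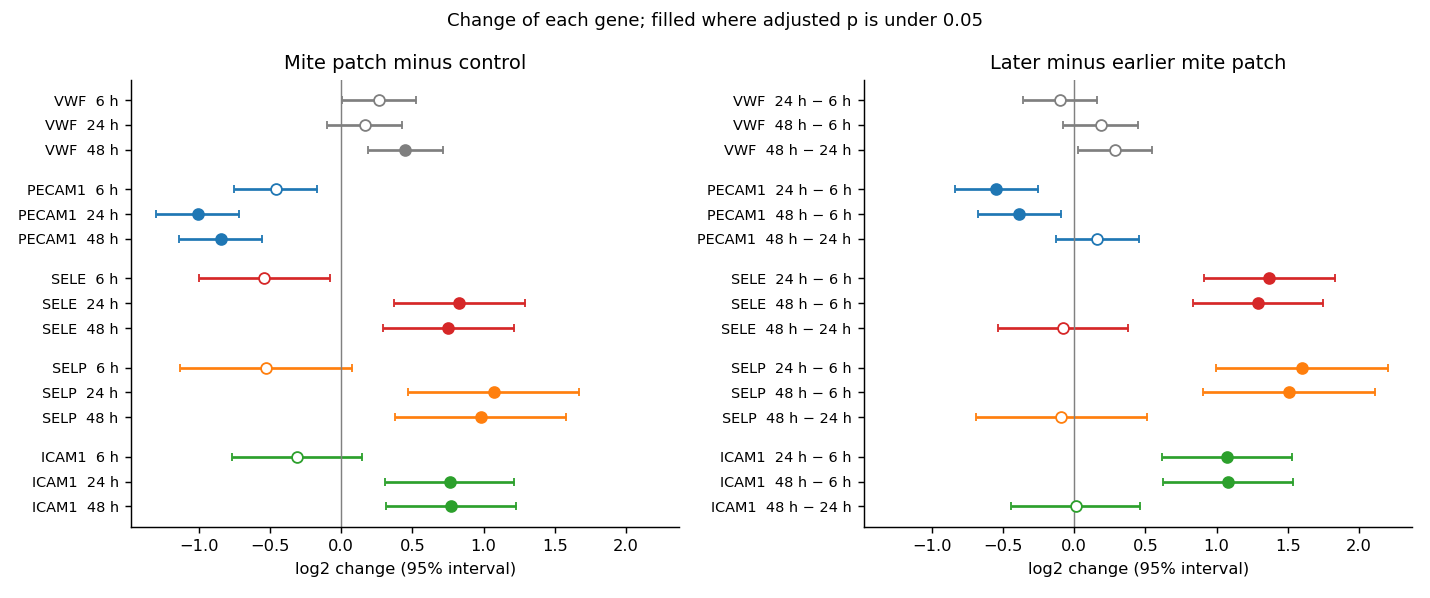
Fitted log2 change (x axis) with its 95% interval for the 5 tied genes, mite patch minus control on the left and later minus earlier mite patch on the right, filled where the adjusted p is under 0.05. SELE, SELP and ICAM1 lie right of 0 at 24 h and 48 h, PECAM1 lies left of it, and no gene is filled for 48 h minus 24 h.

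None of the 5 tied genes passed at 6 h against the control in limma, where 2.89% of all probe sets did, although 3 of them, VWF, PECAM1 and SELE, had an unadjusted p under 0.05, and 0 of the 6 passed in the authors' deposited table, where 1.47% of the genes did. The 95% intervals at 6 h were 0.00 to 0.53 for VWF, -0.75 to -0.17 for PECAM1 and -0.999 to -0.08 for SELE.

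Compared between times, both selectins and ICAM1 were higher and PECAM1 was lower at 24 h than at 6 h. SELP was higher at 24 h than at 6 h by 1.60 (SE 0.29, adjusted p = 0.000607, 7 of 8 dogs), a fold of 3.03, SELE by 1.37 (SE 0.22, adjusted p = 0.000230, 8 of 8 dogs), a fold of 2.59, and ICAM1 by 1.07 (SE 0.22, adjusted p = 0.00171, 8 of 8 dogs), a fold of 2.10. The SELE arrays of the 24 h group all lay above those of the 6 h group. How many of all probe sets separate 2 groups in this way was not counted for any comparison. PECAM1 fell by 0.55 (SE 0.14, adjusted p = 0.00940, 7 of 8 dogs). Of all probe sets, 8.45% were higher and 8.85% lower at 24 h than at 6 h. VWF changed by -0.10 (adjusted p = 0.630).

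The differences of 48 h from 6 h were close to these: 1.51 for SELP (adjusted p = 0.000342, a fold of 2.84), 1.29 for SELE (adjusted p = 9.31e-05, a fold of 2.45, with no overlap of the groups), 1.08 for ICAM1 (adjusted p = 0.000607, a fold of 2.12) and -0.39 for PECAM1 (adjusted p = 0.0419). Here 15.8% of all probe sets were higher and 13.6% lower. Muscle-rich arrays made up 5 of the 8 at 6 h, 2 of 8 at 24 h and 0 of 8 at 48 h, and the beta-actin difference was also highest at 6 h. Without the muscle-rich arrays, 0 probe sets passed in limma between 24 h and 6 h (4835 had an unadjusted p under 0.05), and SELE, SELP, ICAM1 and PECAM1 changed by 1.34, 0.77, 0.89 and -0.41. With the beta-actin difference as a covariate the changes from 6 h to 24 h were 0.91, 1.25, 0.82 and -0.70, again with none of the 4 past the test. From 6 h to 48 h they were 0.64, 1.02 and 0.73 for SELE, SELP and ICAM1 with this covariate, and 0.81 for SELP without the muscle-rich arrays, and these calls were lost too. The PECAM1 difference of 48 h from 6 h passed in 8 of 20 alternatives, and was lost without dog 2, 5, 6, 7 or 8 (-0.36, -0.32, -0.25, -0.36 and -0.41) and without the dog in the fit (adjusted p = 0.0524).

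Between 48 h and 24 h none of the 5 passed in limma, where 2.56% of all probe sets did. VWF, which was higher at 48 h by 0.29 (95% interval 0.02 to 0.55, adjusted p = 0.299), was the 1 gene with an unadjusted p under 0.05, and it passed when the arrays were weighted (0.42, adjusted p = 0.0312). The change was -0.08 for SELE (95% interval -0.54 to 0.38), -0.09 for SELP (-0.69 to 0.51), 0.01 for ICAM1 (-0.45 to 0.47) and 0.16 for PECAM1 (-0.13 to 0.45). A p above the threshold does not show that the levels at these 2 times were equal.

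**Figure D4:**
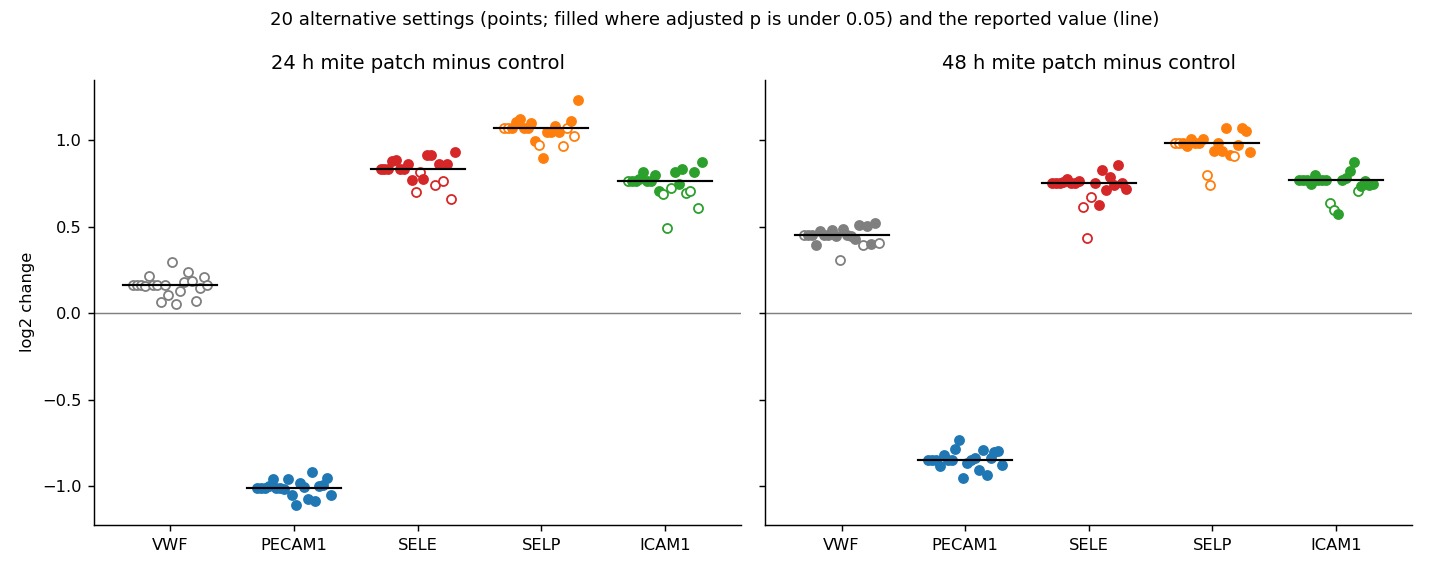
Log2 change against the control (y axis) of each tied gene at 24 h (left) and 48 h (right) under 20 alternative settings, shown as points that are filled where the adjusted p is under 0.05, with the reported value as a line. PECAM1 is filled throughout, and SELE, SELP and ICAM1 keep their sign while losing the call in 3 to 7 of the 20.

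Across the 32 arrays, after each dog's mean was subtracted, the 2 selectins and ICAM1 varied together. Pearson's r was 0.88 between SELE and ICAM1, 0.86 between SELP and ICAM1 and 0.83 between SELE and SELP. With the group means subtracted too, these were 0.69, 0.66 and 0.53. PECAM1 had r of -0.48 with SELE, -0.39 with SELP and -0.38 with ICAM1, and 0.03, 0.35 and 0.36 once the group means were subtracted. For VWF, r to PECAM1, SELE, SELP and ICAM1 was -0.16, 0.13, 0.23 and 0.28, and 0.37, -0.01, 0.16 and 0.19 with the group means subtracted. The points are biopsies of the same 8 dogs on the same arrays, and they share array quality: the beta-actin difference had r of -0.76 with SELE, -0.68 with SELP and -0.67 with ICAM1, and -0.37, -0.21 and -0.20 within groups. For the muscle mean these values were -0.59, -0.57 and -0.57, and -0.26, -0.26 and -0.25 within groups. PECAM1 had r of 0.30 with the beta-actin difference and 0.45 with the muscle mean (-0.19 and 0.35 within groups), and VWF had -0.29 and -0.19 (-0.30 and -0.02 within groups).

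The genes most like each of the 5, among the 10512 tied genes and by the same correlation over 32 arrays with dog means subtracted, were as follows. For SELE they were FBL (0.91), HAS2 (0.91) and ADAMTS4 (0.90), with ICAM1 eighth in the order. For SELP they were OSMR (0.92), TNFAIP6 (0.90) and SELM (0.89). For ICAM1 they were HAS2 (0.94), CCL2 (0.93) and IL6 (0.91), with SELE and SELP also among its 8 nearest. PECAM1 was nearest to a non-muscle caldesmon-like gene, LOC608135 (0.91), SPTBN1 (0.89) and TWSG1 (0.88). The nearest genes to VWF had lower values: RNF144A (0.72), ZPLD1 (0.72) and TLR10 (0.69).

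Of the 18 genes listed as markers of blood vessel endothelium, 4 were tied (KDR, ESAM, MMRN2 and PTPRB), and none passed in limma at 24 h or 48 h, with 3 and 1 at an unadjusted p under 0.05. Their median change was -0.19 at 24 h and -0.13 at 48 h. With 4 genes, a count of 0 is near the shares called over all probe sets at these times. Between times, ESAM and PTPRB were lower than at 6 h at both 24 h (-0.33 and -0.32) and 48 h (-0.30 and -0.28). In these comparisons 8.85% and 13.6% of all probe sets were lower. Changes of list genes between times were not recomputed one by one under the alternatives. Without the muscle-rich arrays no probe set passed between 24 h and 6 h, so both 24 h calls were lost there. Of all genes of the authors' deposited table, 2.85% were higher and 4.38% lower at 24 h, and 12.5% and 8.22% at 48 h. The table holds 16 of the 18. In it 0 were higher and 2 lower at 24 h, the angiopoietin receptor TEK (fold -1.7, adjusted p = 0.018) and endomucin, EMCN (fold -1.8, adjusted p = 0.01). At 48 h 1 was higher, PLVAP (fold 1.2, adjusted p = 0.026), and 3 were lower, EMCN (fold -1.9), TEK (fold -1.6, adjusted p = 0.011) and the VEGF receptor FLT1 (fold -1.2, adjusted p = 0.045). None of the 2 tied lymphatic genes and none of the 5 tied genes of pericytes and smooth muscle passed at 24 h or 48 h in limma, where the count at an unadjusted p under 0.05 was 0 for the lymphatic genes at both times and 0 and 3 for the pericyte genes. With 2 and 5 genes, counts of 0 past the test are near the shares called over all probe sets. In the authors' deposited table the pericyte gene RGS5 was lower at both times (folds of -1.6 and -1.9).

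Of 7 tied genes of Weibel-Palade body cargo and coagulation, THBS1, which codes for thrombospondin, fell by 0.59 at 24 h and fell by 0.65 at 48 h, while ANGPT2, an angiopoietin stored in these granules, rose by 0.57 at 48 h and CD63, a granule membrane protein, by 0.32. That is 3 of 7 called at 48 h, 2 higher and 1 lower, where 10.6% of all probe sets were higher and 9.09% lower. The ANGPT2 call was lost with the beta-actin difference as a covariate (0.14). None of 5 tied platelet genes passed in limma at 24 h or 48 h, and 1 had an unadjusted p under 0.05 at each time. With 5 genes, a count of 0 is near the shares called over all probe sets. PPBP, 1 of 7 platelet genes in the authors' deposited table, was lower at 48 h (fold -3.1, adjusted p = 0.019), where 8.22% of all its genes were lower.

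Among 7 tied adhesion and transmigration molecules outside the 6, ALCAM, which binds CD6 on T cells, was the 1 gene that fell at all 3 times, with changes of -0.43 at 6 h, -0.55 at 24 h and -0.88 at 48 h. The 6 h call was lost with the muscle mean (-0.39) or the beta-actin difference (-0.31) as a covariate and without the muscle-rich arrays (-0.27), and it passed in 8 of 20 alternatives. At 48 h the matrix proteoglycan gene VCAN rose by 0.90 and CD47, which takes part in leukocyte passage, by 0.67. The VCAN call was lost with the muscle mean (0.71) and with the beta-actin difference (0.37). The authors' deposited table holds 12 of the 14 genes of this list. In it CD99 was lower at 24 h (fold -1.5) and 0 were higher. At 48 h CD99 (fold -1.5), F11R (fold -1.4), ALCAM (fold -1.8) and MCAM (fold -1.4) were lower, 4 of the 12. JAM3 (fold 1.2), VCAN (fold 1.9) and CD47 (fold 1.6) were higher at that time. Of all its genes 8.22% were lower and 12.5% higher at 48 h. Of 5 tied enzymes that build selectin ligands, none passed at 24 h (1 had an unadjusted p under 0.05) and 3 rose at 48 h, ST3GAL4 by 0.49, GCNT1 by 0.38 and CHST2 by 0.27. The call of GCNT1 was lost with the muscle mean (0.33) and the beta-actin difference (0.39), and that of CHST2 with the muscle mean (0.24) and without the muscle-rich arrays (0.22). Beside the limma calls of both lists, 2.89% of all probe sets passed at 6 h in either direction. At 24 h 2.97% rose and 5.22% fell, and at 48 h 10.6% rose and 9.09% fell.

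Of 6 tied leukocyte ligands of the adhesion molecules, 2 rose and 1 fell at 48 h, where 10.6% of all probe sets rose and 9.09% fell. ITGA4, the alpha-4 chain that binds VCAM1, rose by 0.47 at 24 h and 0.80 at 48 h, and ITGAX rose by 0.84 at 48 h. ITGB1, a chain that many skin cells share, fell at all 3 times (-0.70, -0.89 and -0.78), and CD44 fell at 6 h (-0.62). Both 6 h calls were lost with the beta-actin difference (-0.44 for each) and without the muscle-rich arrays (-0.57 for ITGB1 and -0.40 for CD44), and the 24 h call of ITGA4 was lost with the beta-actin difference (0.37). The authors' deposited table had 6 of 11 such genes higher at 48 h and 1 lower, ITGB1 (fold -1.7). Among all genes listed there, 12.5% were higher and 8.22% lower at that time. The higher ones included ITGB2, the chain shared by the ICAM1 ligands (fold 3.8), and SELPLG, the ligand of P-selectin (fold 3.4). ITGB2 and SELPLG were picked for naming after their values were seen.

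Of 6 tied leukocyte markers, 2 rose at 24 h, CD3D (1.54) and AIF1 (0.84), and 5 rose at 48 h: CD3D (2.93), AIF1 (1.84), TYROBP (1.69), CD2 (1.48) and CD14 (0.73). The 24 h call of AIF1 was lost with the beta-actin difference (0.75) and without the muscle-rich arrays (0.77). Their mean level had a median over dogs of 5.42 in the control group, 5.50 at 6 h, 5.90 at 24 h and 6.89 at 48 h. Its part in the changes of ICAM1, PECAM1 and the selectins was not tested. Of 11 tied genes of the NF-kB and TNF response, the signalling known to switch on SELE, ICAM1 and VCAM1 in endothelial cells, none passed at 24 h (2 had an unadjusted p under 0.05) and 5 rose at 48 h: IL6 (2.03), NFKB2 (0.52), REL (0.52), RELB (0.40) and TNFAIP3 (0.37). Of these, NFKB2 kept its call under all 20 alternatives. With the beta-actin difference as a covariate the other 4 lost theirs (1.89 for IL6, 0.21 for REL, 0.28 for RELB and 0.28 for TNFAIP3). The calls of IL6, REL and RELB were also lost with the muscle mean (1.48, 0.44 and 0.32), and those of REL, RELB and TNFAIP3 without the muscle-rich arrays (0.47, 0.35 and 0.30). The median change of the 11 was 0.20 at 24 h and 0.40 at 48 h. Beside the counts of these 11 genes and of the 6 leukocyte markers, 2.97% of all probe sets rose at 24 h and 10.6% at 48 h.

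**Figure D5:**
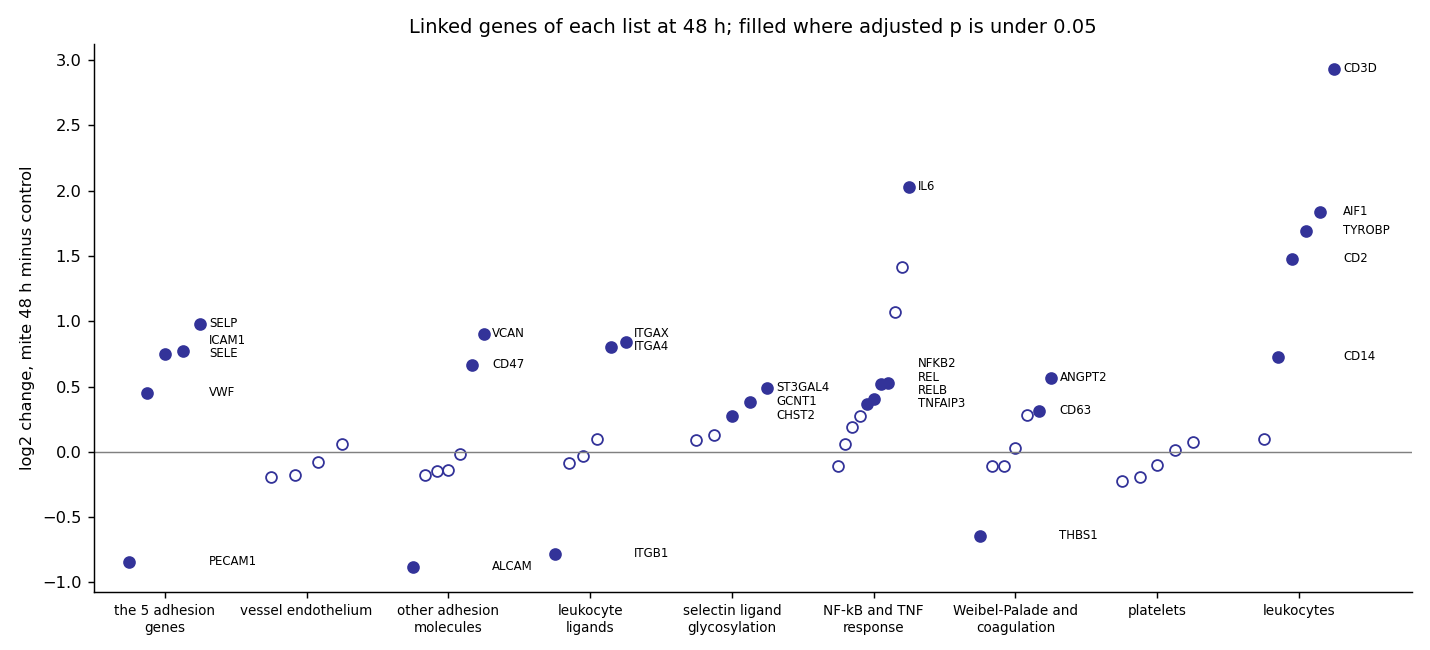
Log2 change at 48 h against the control (y axis) for the tied genes of each list along the x axis, ordered by size within a list and filled and named where the adjusted p is under 0.05. The leukocyte markers reach 2.93, while the 4 vessel endothelium genes and the 5 platelet genes lie near 0.

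Other skin components moved as well. Of all probe sets 5.22% fell at 24 h and 9.09% at 48 h against the control, and 2.89% passed at 6 h in either direction. At 24 h all 4 tied fibroblast markers fell (LUM, PDGFRA, COL1A2 and DCN, -0.91 to -0.36), and 1, DCN, did so at 48 h (-0.31). Without the muscle-rich arrays the 24 h calls of PDGFRA, COL1A2 and DCN were lost (-0.51, -0.56 and -0.31), and the 48 h call of DCN was lost with the muscle mean (-0.29) and the beta-actin difference (-0.32). Of 6 tied adipocyte markers 5 fell at both times, with median changes of -1.13 and -1.56, though without the muscle-rich arrays LPL (-1.47) and CFD (-0.47) no longer passed at 24 h. Keratinocyte markers had 0 of 5 past the test in limma at 24 h and 48 h (0 with an unadjusted p under 0.05 at either time), and 1, DSG3, fell at 6 h (-0.53), a call lost with the muscle mean (-0.43) or the beta-actin difference (-0.33) as a covariate and without the muscle-rich arrays (-0.30). Of the 6 muscle markers, 1 passed against the control, MYH2, which fell at 48 h (-4.95, a call lost with the beta-actin difference as a covariate, -3.81). MYH2 is part of the muscle mean, so the loss of its call with that covariate (-0.71) was built in. All 6 were lower at 48 h than at 6 h, where 13.6% of all probe sets were lower. PECAM1 fell alongside the adipocyte markers, whose part in its change was not tested. With the muscle mean as a covariate its changes at 24 h and 48 h were -0.96 and -0.73, and without the muscle-rich arrays they were -1.11 and -0.86.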

How the data were processed

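Biotin-labelled cDNA of 32 skin biopsies was hybridised to 1 array each, per the labels' protocols. The authors deposited log2 signals for 43035 probe sets. Their summarisation, normalization, array design and build: not given in the sources used here. They also deposited a table of 17107 genes with a signed fold (a score in which a fall is minus the inverse ratio) and an adjusted p-value for each time against the control.

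Genes were tied to probe sets by equality of 3 folds (within 0.05) and 3 adjusted p-values (within 0.001) with a plain linear model without the dog. 10523 genes had exactly 1 match, 4 had several and 6580 had none, and 10512 were used (61.4%) after duplicates, damaged names and array controls were dropped.

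With limma 3.58.1 (R 4.3.3), 1 model of the 4 groups and the dog, a fixed block, was fitted to 42860 probe sets on the 32 arrays, leaving out 175 array controls and with no filter (21 residual degrees of freedom, 4.68 prior). Tests are 2-sided and Benjamini-Hochberg adjusted over these probe sets, with a threshold of 0.05. The script was tested on simulated data. The number of arrays limits the precision.

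The dog comes from the labels. Deviations from group means of arrays of 1 dog correlated by 0.16 on average over 48 pairs (-0.46 to 0.70, 33 above 0.1). The 6 genes and the 14 lists of other genes were chosen with earlier results of these data known. Named are the 6 genes, the 3 tied genes most like each, up to 4 list genes with the largest change at 48 h among those that passed, and all that passed where these are 5 or fewer. Genes with values from the authors' deposited table alone were named above for the vessel, adhesion and transmigration, pericyte and platelet lists. Each of those counts was 5 or fewer. In other lists with such counts, PDPN was lower at 6 h, and LCP1 and LAPTM5 were higher and COL3A1 lower at 24 h. At 48 h THY1 was higher and FBLN1 lower. ITGB2 and SELPLG were chosen after their values were seen.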

Additional observations from a re-analysis of the deposited data

Results flagged for a closer look

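Of 20 groups of 8 arrays examined, 4 for each tied gene, 2 held an array far from the other 7 by Dixon's test at the 95% level, which chance gives in about 1 of 20 groups. For VWF it was the 6 h mite array of dog 6, at 9.24, and without this dog the 6 h change was 0.17 in place of 0.27. For SELP it was the 24 h mite array of dog 8, at 4.82, and without this dog the 24 h change was 1.23 in place of 1.07.

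The change against the control differed between times for 4 genes, by the test of the later minus the earlier time. For 24 h minus 6 h the differences were 1.37 for SELE, 1.60 for SELP, 1.07 for ICAM1 and -0.55 for PECAM1. For 48 h minus 6 h they were 1.29 for SELE, 1.51 for SELP, 1.08 for ICAM1 and -0.39 for PECAM1. The share of muscle-rich arrays and the beta-actin difference, both highest at 6 h, moved with these differences.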

How the results depend on the processing

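Each change of the 5 tied genes and each count of probe sets was recomputed under 20 alternatives, 8 of which left out 1 dog. The correlations and the values of the authors' deposited table were not. The changes of SELE, SELP and ICAM1 at 24 h and 48 h, of VWF at 48 h and of PECAM1 at 24 h and 48 h against the control kept their sign in all 20. The call held in 20 of 20 for PECAM1 at both times, in 15 and 17 for SELE, 14 and 15 for SELP and 13 and 17 for ICAM1 at 24 h and 48 h, and in 16 for VWF at 48 h. Without the replicate block (the dog), calls were lost for SELP at 24 h and 48 h (1.07 and 0.98), ICAM1 at 24 h (0.76), VWF at 48 h (0.45) and PECAM1 at 48 h against 6 h (-0.39), and no other call of the 5 genes changed. With the dog as a random effect the SELP calls were lost (1.07, adjusted p = 0.0784, and 0.98, adjusted p = 0.0658). The cause of each loss was not tested. Where arrays were left out the fit also had fewer arrays, and the part of this was not tested either.

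With the beta-actin difference as a covariate, calls were lost for SELE (0.70 at 24 h, 0.43 at 48 h, 0.91 and 0.64 for 24 h and 48 h against 6 h), SELP (0.97, 0.74, 1.25 and 1.02 in the same order), ICAM1 (0.69, 0.60, 0.82 and 0.73), VWF at 48 h (0.31) and PECAM1 at 24 h and 48 h against 6 h (-0.70 and -0.60). With the muscle mean as a covariate they were lost at 48 h for SELE (0.61), SELP (0.80) and ICAM1 (0.63), and for PECAM1 at 24 h and 48 h against 6 h (-0.43 and -0.20). Without the 9 muscle-rich arrays, which leaves 6 control, 3, 6 and 8 mite arrays, they were lost for SELE (0.82 at 24 h, 0.67 at 48 h, 1.34 for 24 h against 6 h), SELP (0.77 and 0.81 for 24 h and 48 h against 6 h), ICAM1 (0.49 at 24 h, 0.89 for 24 h against 6 h) and PECAM1 (-0.41 and -0.17 for 24 h and 48 h against 6 h), and the change of SELP at 6 h turned to 0.12. PECAM1 at 48 h against 6 h was also lost with only the 2 groups compared (-0.39), with arrays centred on their medians (-0.35) and with array weights (-0.30). Array weights brought a call for PECAM1 at 6 h (-0.48) and VWF at 48 h against 24 h (0.42). ICAM1 at 24 h was lost without the 24 h array of dog 5 (0.72).

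Differences that had not passed turned sign for VWF, at 24 h against 6 h without the muscle-rich arrays (0.11) and at 48 h against 6 h with the beta-actin difference (-0.11). At 48 h against 24 h SELE turned without replicate 7 (0.097), SELP without replicate 7 (0.027) and without the muscle-rich arrays (0.037), and ICAM1 with quantile normalization (-0.031), centring (-0.017), array weights (-0.028), the muscle mean (-0.070) and the beta-actin difference (-0.092), and without replicate 1, 6 or 8 (-0.034, -0.052 and -0.127).

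Leaving out 1 dog at a time, the changes of results that lost, gained or turned ran as follows. At 6 h against the control they were -0.55 to -0.35 for PECAM1. At 24 h they were 0.66 to 0.93 for SELE, 0.97 to 1.23 for SELP and 0.61 to 0.87 for ICAM1. At 48 h they were 0.39 to 0.52 for VWF, 0.91 to 1.07 for SELP and 0.71 to 0.87 for ICAM1. For 48 h against 6 h they were -0.50 to -0.25 for PECAM1. For 48 h against 24 h they were -0.29 to 0.10 for SELE, -0.30 to 0.03 for SELP and -0.13 to 0.13 for ICAM1.

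At 6 h against the control 1239 probe sets passed, with 469 without the replicate block, 2004 with array weights, 582 with the muscle mean, 0 with the beta-actin difference, 0 without the muscle-rich arrays and 1915 without the 24 h array of dog 5, and 283 to 1878 without 1 dog (over 1.5 times away without dog 1, 2, 3, 4, 6 or 8). At 24 h 3509 probe sets passed, with 2160 without the replicate block and 2325 without the muscle-rich arrays, and 2131 to 3278 without 1 dog (over 1.5 times away without dog 3). At 48 h 8438 probe sets passed, with 5448 with the beta-actin difference. For 24 h against 6 h 7416 probe sets passed, with 4696 with only the 2 groups, 3547 with the muscle mean, 487 with the beta-actin difference and 0 without the muscle-rich arrays, and 4378 to 7618 without 1 dog (over 1.5 times away without dog 3). For 48 h against 6 h 12603 probe sets passed, with 5925 with the muscle mean, 850 with the beta-actin difference and 1604 without the muscle-rich arrays. For 48 h against 24 h 1096 probe sets passed, with 463 without the replicate block, 433 with only the 2 groups, 314 with the beta-actin difference, 207 without the muscle-rich arrays and 636 without the 24 h array of dog 5, and 247 to 1627 without 1 dog (over 1.5 times away without dog 1, 2, 4, 5 or 8). The counts of 0 in limma at 6 h stand beside 4007 and 1835 probe sets with an unadjusted p under 0.05 under the same settings.

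The same alternatives were extended, after the data were seen, to the 48 changes of list genes that had passed against the control. Of these 25 passed under every alternative run, 23 lost the call under at least 1, and 0 turned in sign. Without the replicate block the lost calls were ALCAM and DSG3 at 6 h, ALCAM, ITGA4, AIF1 and CFD at 24 h, and GCNT1 and RELB at 48 h. Leaving out 1 dog ended those of ALCAM, CD44 and DSG3 at 6 h, ITGA4, AIF1, COL1A2, DCN, LPL, CIDEA and CFD at 24 h, and VCAN, GCNT1, CHST2, REL, RELB, TNFAIP3, MYH2 and DCN at 48 h for at least 1 dog. Probe sets at or below the median signal gave no value under the filter on dim ones.

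A link tolerance of 0.01 for the fold and 0.0005 for p, narrower than the rounding of the deposited folds, tied 68 genes and 0 of the 6, so it gave no values. The arrays give no background level, so a low SELE signal has no stated detection limit.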
